A study of Mus musculus with 6 samples.

Results

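The genes described here are the 10 EGF-family and neuregulin ligands of the mouse, chosen by name as the secreted or membrane-anchored agonists of the ErbB receptors: Egf, Tgfa, Areg, Hbegf, Btc, Ereg, Epgn, Nrg1, Nrg2 and Nrg4. They are 10 of the 54232 gene identifiers counted in RNA-seq libraries from mouse tumors. The tumors fell into 2 groups of 3 libraries, CdGAP fx/fx (fx1, fx2 and fx3) and CdGAP wt/wt (wt1, wt2 and wt3). Every tumor of both groups carried NIC, a transgene whose MMTV promoter, active in mammary epithelium, gives 1 transcript that encodes both an activated rat ErbB2 (neu) and Cre recombinase. In fx/fx tumors both alleles of CdGAP, the Rac1 and Cdc42 GTPase-activating protein encoded by Arhgap31, are floxed, so that Cre acts on them in the cells that express NIC and not in the stroma. The wt/wt tumors express the same oncogene and the same Cre. The labels do not say whether the 3 libraries of a group came from separate mice, so a p-value here speaks only of the spread among these libraries, which may be technical. The labels state no age.

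ErbB ligands are made as membrane-anchored precursors that metalloproteases of the ADAM family release from the cell surface. EGF, TGF-alpha, amphiregulin and epigen bind EGFR; betacellulin, HB-EGF and epiregulin bind EGFR and ErbB4; and neuregulins bind ErbB3, ErbB4 or both. ErbB2 has no known ligand and acts as the partner of the other receptors. In the mammary gland amphiregulin carries the estrogen signal for ductal growth, and overexpressed TGF-alpha is known to speed ErbB2-driven tumor formation in mice.

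The start-site windows of Egf and Tgfa are shown because these were the ligands whose levels separated the genotypes. The RefSeq promoter table (GRCm38.p6) held windows, 250 bases before to 50 bases after a start site, for 6 of the 10 ligands: Egf, Tgfa, Areg, Epgn, Btc and Nrg4. The Egf window lies on the minus strand at chr3:129755273-129755572, with its start site 7 bases from the gene start of the count files. The Tgfa window lies on the plus strand at chr6:86194972-86195271, with its start site 2 bases from that gene start. Both are written 5′ to 3′ on the strand of the gene, with capitals marking the matched motifs.
Egf: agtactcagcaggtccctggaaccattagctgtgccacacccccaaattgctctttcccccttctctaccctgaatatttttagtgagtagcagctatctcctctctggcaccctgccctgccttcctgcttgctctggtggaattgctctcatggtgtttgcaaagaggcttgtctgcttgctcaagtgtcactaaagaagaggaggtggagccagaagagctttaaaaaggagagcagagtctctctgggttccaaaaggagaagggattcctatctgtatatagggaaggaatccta
Tgfa: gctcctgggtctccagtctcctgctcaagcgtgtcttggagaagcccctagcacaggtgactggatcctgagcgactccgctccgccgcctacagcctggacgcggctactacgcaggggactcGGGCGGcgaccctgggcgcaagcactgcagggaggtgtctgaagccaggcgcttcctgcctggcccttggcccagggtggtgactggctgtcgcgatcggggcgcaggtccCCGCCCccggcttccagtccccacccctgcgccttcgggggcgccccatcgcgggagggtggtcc
Both strands were searched for 6 short motifs, none of which overlapped another in these windows. The AP-1 motif was spelled TGANTCA and the cyclic AMP response element (CRE) TGACGTCA. The ETS site was spelled CCGGAAGT. The GC box, the binding string of Sp1, was spelled GGGCGG. For the TATA box the letters were TATAAA. For the E-box, a string bound by Myc and other factors, they were CACGTG. The Egf window, 49.0% G or C, held none of these strings, which says only that these letters are not in this window. The table also lists an Egf start site 30229 bases from the gene start, whose window, not shown, held 1 ETS string, as 3.89% of all windows do. The Tgfa window, 70.7% G or C, held 2 GC boxes, at position -126 on the plus strand and at -15 on the minus strand relative to the start site. The GC box string occurs in 35.7% of the 32851 windows of the table. The Areg window held a CRE string at -61, which 1.79% of all windows hold, and a TATA box string at -31, which 13.6% hold. The Areg, Epgn, Ereg and Btc genes lie within 376 kb on chromosome 5, in the order Epgn, Ereg, Areg and Btc.

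Libraries held between 36732137 and 53606276 counted read pairs, so that 3 counts, the limit that a count of 0 allows, equal between 0.056 and 0.0817 CPM (counts per 1000000 counts), counting error only. Arhgap31 itself stood at 156, 44.1 and 116 CPM in fx1, fx2 and fx3, against 664, 433 and 549.8 CPM in wt1, wt2 and wt3. The libraries had the markers of luminal epithelium that a mammary tumor should have, with the 10 listed genes summing to between 4518 and 6104 CPM in fx/fx tumors and between 4404 and 5363 CPM in wt/wt tumors. Markers of the stroma also moved with genotype. Fibroblast markers summed to 1009, 1528 and 836 CPM in fx/fx tumors, against 402, 530 and 312 CPM in wt/wt tumors. Adipocyte markers summed to 144, 469 and 196 CPM in fx/fx tumors, against 116, 46.9 and 45.3 CPM in wt/wt tumors.

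At an edgeR quasi-likelihood adjusted p under 0.05, 0 of 16752 genes passed (0.0%), and at an unadjusted p under 0.05 the test gave 14.2% of them. Of the 10 ligands, 8 passed the filter on low counts, 0 passed the adjusted threshold, and 1 higher and 1 lower passed the unadjusted one, where 8.18% of all genes were higher and 6.04% lower. DESeq2, the other test run on the same counts, called 4.97% of its 16717 genes, with 3.01% higher and 1.96% lower in fx/fx tumors. It called 2 ligands, Tgfa higher and Egf lower. The same 2 were the ligands whose genotypes did not overlap, a pattern that 19.7% of all tested genes showed, 9.74% with fx/fx tumors above and 9.93% with fx/fx tumors below. In bulk tumor RNA, fewer cells of a type and less RNA per cell cannot be told apart, and this holds for every difference below.

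**Figure D1:**
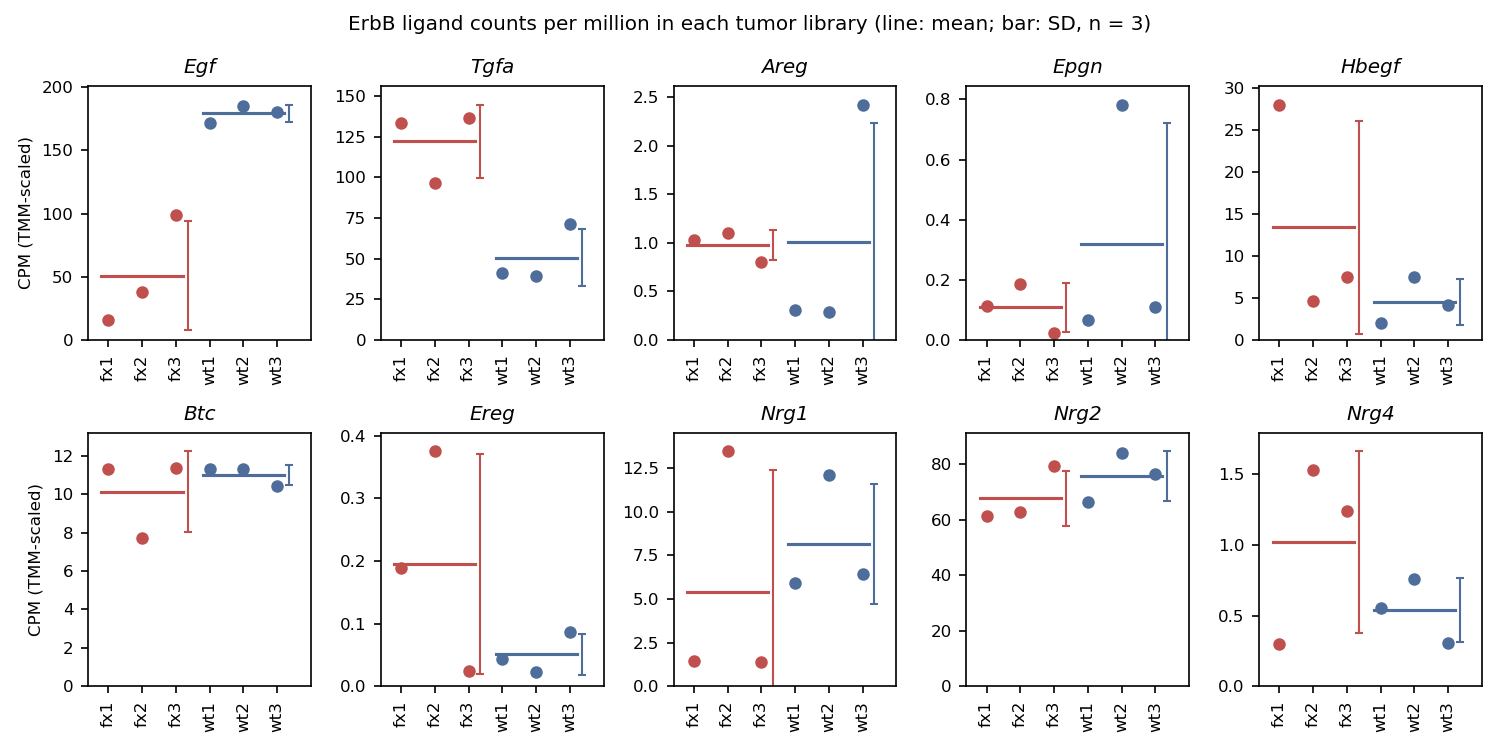
Level of each of the 10 ligands in CPM (vertical axes, linear, from 0, with a separate scale for each gene) in the fx/fx libraries on the left and the wt/wt libraries on the right of each panel; points are libraries, and bars are the group mean with its SD, cut at 0. The groups do not overlap for Egf, where fx/fx libraries lie between 15.8 and 98.8 CPM and wt/wt libraries between 172 and 185 CPM, or for Tgfa, where fx/fx libraries lie between 96.4 and 137 CPM and wt/wt libraries between 39.6 and 71.1 CPM.

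Among the ligands of EGFR alone, Egf (ENSMUSG00000028017, chromosome 3) encodes the large precursor of epidermal growth factor, the founding ligand of the family. Egf had 839, 1420 and 4073 read pairs in fx1, fx2 and fx3, against 7763, 8304 and 8267 in wt1, wt2 and wt3. Scaled to depth these were 15.8, 38.0 and 98.8 CPM in fx/fx tumors, against 172, 185 and 181 CPM in wt/wt tumors. Every fx/fx library lay below every wt/wt library, and the fx/fx libraries also lay far apart from each other. The coefficient of variation was 84.5% in fx/fx tumors and 3.80% in wt/wt tumors. The means were 50.9 ± 43.0 CPM in fx/fx tumors and 179 ± 6.82 CPM in wt/wt tumors (SD, n = 3 each), a level 3.53-fold lower in fx/fx tumors. In edgeR the log2 fold change was -1.82 (SE 0.59; unadjusted p = 0.0165, adjusted p = 0.251), so the difference did not pass the threshold there. DESeq2 called it, with -1.84 (adjusted p = 0.0281). The DESeq2 call was lost without fx2 (adjusted p = 0.0905), wt1 (0.130), wt2 (0.136) or wt3 (0.109), and without fx3 the log2 fold change was -2.73 (adjusted p = 5.41e-08).

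Tgfa (ENSMUSG00000029999, chromosome 6), which encodes TGF-alpha, another high-affinity EGFR ligand of epithelial cells, went the other way. Its read pairs numbered 7100, 3600 and 5638 in fx1, fx2 and fx3, against 1865, 1775 and 3256 in wt1, wt2 and wt3. These were 134, 96.4 and 137 CPM in fx/fx tumors, against 41.3, 39.6 and 71.1 CPM in wt/wt tumors. All 3 fx/fx libraries were above all 3 wt/wt libraries, and the nearest pair was fx2 above wt3. Tgfa averaged 122 ± 22.4 CPM in fx/fx tumors and 50.7 ± 17.7 CPM in wt/wt tumors (SD, n = 3 each), 2.41-fold higher in fx/fx tumors. The edgeR log2 fold change was 1.27 (SE 0.28; unadjusted p = 0.00209, adjusted p = 0.182), short of the adjusted threshold. DESeq2 called Tgfa with 1.26 (adjusted p = 0.00466), and the call was lost only without wt1 (adjusted p = 0.0866) among the 6 libraries left out in turn. Among all tested genes, 3.18% had a fold change larger in size than that of Egf and 7.78% one larger than that of Tgfa.

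Genes around Egf and Tgfa did not share their shifts on the median. Within 5 Mb of Egf, the median of 36 tested protein-coding neighbours stood 0.11, 0.09 and 0.27 log2 units above the wt/wt mean in fx1, fx2 and fx3, where Egf itself stood at -3.50, -2.24 and -0.86. Around Tgfa, the median of 103 neighbours stood at -0.02, -0.18 and 0.08 in fx1, fx2 and fx3, where Tgfa stood at 1.45, 0.98 and 1.48. No other gene shares an exon with any of the 10 ligands on the same strand in the annotation, while exons of other genes lie on the opposite strand of Egf, Tgfa, Ereg, Nrg1 and Nrg4. The counts were made with strand set, per the file headers.

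**Figure D2:**
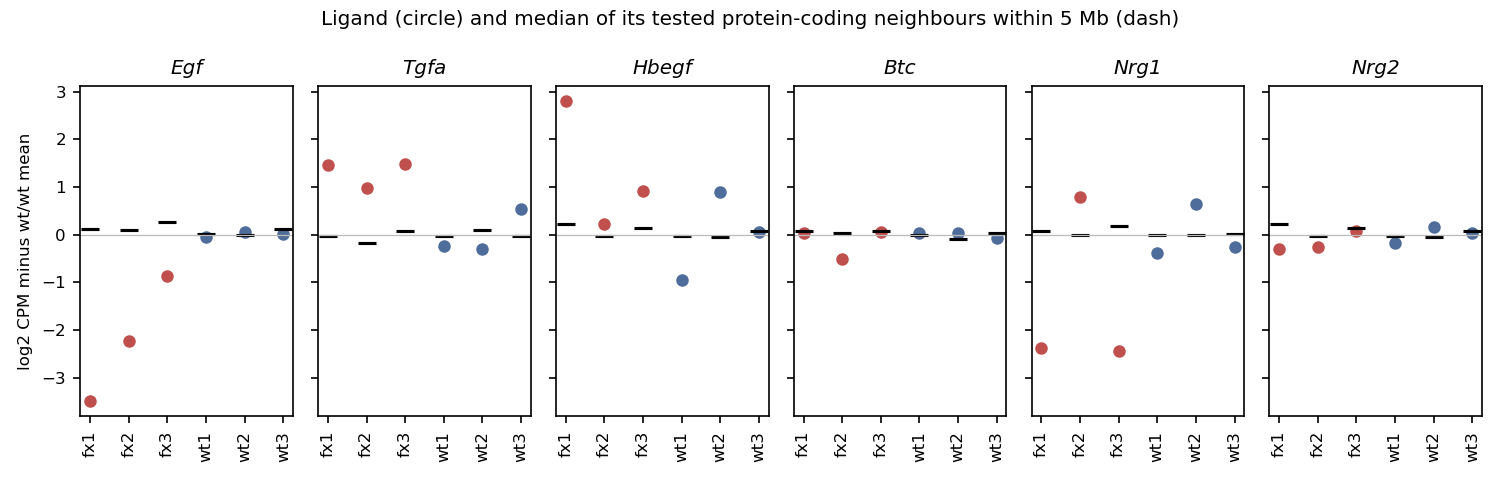
Difference of each library from the wt/wt mean in log2 CPM (vertical axis, shared) for 6 ligands (circles, fx/fx libraries left of wt/wt libraries) and the median of the tested protein-coding genes within 5 Mb of each (dashes). Egf lies at -3.50, -2.24 and -0.86 in the fx/fx libraries, while the median of its 36 neighbours lies between 0.09 and 0.27 there.

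The remaining ligands of EGFR alone, Areg and Epgn, were low. Areg (ENSMUSG00000029378) encodes amphiregulin, which estrogen induces in the mammary gland. It had 1.04, 1.10 and 0.800 CPM in fx1, fx2 and fx3, against 0.310, 0.290 and 2.42 CPM in wt1, wt2 and wt3. Of the wt/wt libraries, wt3 was above and the others were below every fx/fx library. The edgeR log2 fold change was -0.04 (SE 0.82, adjusted p = 0.990), and without wt3 it was 1.68 (adjusted p = 0.366). Epgn (ENSMUSG00000035020), which encodes epigen, a low-affinity EGFR ligand, had 6, 7 and 1 read pairs in fx1, fx2 and fx3, against 3, 35 and 5 in wt1, wt2 and wt3. The highest count was in wt2, and the groups overlapped. Epgn did not pass the filter on low counts, and permuting its log2 CPM over all 20 orderings of the libraries gave an exact 2-sided p = 0.6, where the smallest possible p is 0.1.

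Of the ligands shared by EGFR and ErbB4, Hbegf (ENSMUSG00000024486, chromosome 18) encodes the heparin-binding member. Hbegf had 28.0, 4.66 and 7.52 CPM in fx1, fx2 and fx3, against 2.02, 7.46 and 4.13 CPM in wt1, wt2 and wt3. Library fx1 stood alone, and the other fx/fx libraries lay within or beside the range of the wt/wt libraries. The means were 13.4 ± 12.7 CPM in fx/fx tumors and 4.53 ± 2.75 CPM in wt/wt tumors (SD, n = 3 each). By edgeR the log2 fold change was 1.56 (SE 0.75, adjusted p = 0.399), and it was 0.41 without fx1 (adjusted p = 0.883).

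Btc (ENSMUSG00000082361) encodes betacellulin, which takes its name from the beta-cell tumor line it was found in. It had 11.3, 7.71 and 11.4 CPM in fx1, fx2 and fx3, against 11.3, 11.3 and 10.4 CPM in wt1, wt2 and wt3. All libraries but fx2 lay between 10.4 and 11.4 CPM. The edgeR log2 fold change was -0.12 (SE 0.26, adjusted p = 0.874), and it turned to 0.04 without fx2. Ereg (ENSMUSG00000029377), which encodes epiregulin, had 10, 14 and 1 read pairs in fx1, fx2 and fx3, against 2, 1 and 4 in wt1, wt2 and wt3. These counts were too few for the filter, the groups overlapped, and the same permutation gave an exact 2-sided p = 0.3.

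Among the neuregulins, Nrg2 (ENSMUSG00000060275, chromosome 18) was the most abundant. This ligand of ErbB3 and ErbB4 is best known from the nervous system. Nrg2 had 61.2, 62.6 and 79.1 CPM in fx1, fx2 and fx3, against 66.3, 84.0 and 76.5 CPM in wt1, wt2 and wt3. The groups overlapped, and the libraries of each group lay close together, with a coefficient of variation of 14.7% in fx/fx tumors and 11.8% in wt/wt tumors. The means were 67.6 ± 9.94 CPM in fx/fx tumors and 75.6 ± 8.93 CPM in wt/wt tumors (SD, n = 3 each), with an edgeR log2 fold change of -0.16 (SE 0.18, adjusted p = 0.745).

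Nrg1 (ENSMUSG00000062991, chromosome 8), the ErbB3 and ErbB4 ligand that Schwann cells and heart muscle need, varied widely between libraries of the same genotype. It had 1.45, 13.4 and 1.38 CPM in fx1, fx2 and fx3, against 5.89, 12.1 and 6.44 CPM in wt1, wt2 and wt3. The high libraries were fx2 and wt2, so the spread ran across the genotypes. Skeletal muscle markers were highest in the same libraries, with sums of 1.51, 39.9 and 1.26 CPM in fx/fx tumors, against 3.24, 11.7 and 3.97 CPM in wt/wt tumors. The sum of the markers of alveolar epithelium and milk was also highest there, at 13640, 15123 and 6443 CPM in fx/fx tumors, against 8501, 18123 and 4172 CPM in wt/wt tumors. This sum was made up mostly of Csn3. The mean over the list in log2 CPM was also highest in fx2 and wt2, at 0.42 and 0.73 above the wt/wt mean. Not every marker followed, since Lalba was higher in wt1 (2568 CPM) than in wt2 (1684 CPM), and Csn2 higher in fx3 (47.9 CPM) than in fx2 (38.1 CPM). The part of muscle or alveolar cells in the Nrg1 level was not tested. For Nrg1 the edgeR log2 fold change was -0.59 (SE 0.89, adjusted p = 0.817), and DESeq2 gave it no adjusted p. Without fx2 the edgeR value was -2.52 (adjusted p = 0.0914), and limma-voom gave -1.41 (adjusted p = 0.470) on all libraries. Nrg4 (ENSMUSG00000032311, chromosome 9), a ligand of ErbB4 known as a secreted product of brown fat, had 16, 57 and 51 read pairs in fx1, fx2 and fx3, against 25, 34 and 14 in wt1, wt2 and wt3. The groups overlapped, and the edgeR log2 fold change was 0.91 (SE 0.65, adjusted p = 0.575).

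Levels of different ligands were set side by side as CPM per kb of exon length. This length covers all annotated exons of a gene, 11.3 kb for Egf and 3.08 kb for Nrg2. The transcripts present may be shorter, so the order and the shares below depend on it. By CPM alone, Egf at 179 CPM stood above Nrg2 at 75.6 CPM in wt/wt tumors. Likewise Tgfa at 122 CPM stood above Nrg2 at 67.6 CPM in fx/fx tumors. In fx/fx tumors the order began with Nrg2 at 22.0 ± 3.23 and Tgfa at 18.8 ± 3.46 CPM per kb (SD, n = 3), whose libraries overlapped. Hbegf at 5.64, Egf at 4.51 and Btc at 2.24 CPM per kb followed, each overlapping the next, and the other 5 ligands averaged under 1 CPM per kb. In wt/wt tumors Nrg2 was also the most abundant at 24.5 ± 2.90 CPM per kb, Egf was next at 15.9 ± 0.605 and Tgfa followed at 7.81 ± 2.73 (SD, n = 3). These 3 ligands and Btc at 2.44 CPM per kb did not overlap with each other in wt/wt tumors. Nrg2 was more abundant per kb than 82.1% of the tested protein-coding genes in fx/fx tumors and 84.3% in wt/wt tumors. Egf was above 42.7% of them in fx/fx tumors and 75.3% in wt/wt tumors, and Tgfa above 79.2% in fx/fx tumors and 57.2% in wt/wt tumors. Per kb, Ereg was the least abundant ligand in both groups, at 0.0474 CPM per kb in fx/fx tumors and 0.0124 CPM per kb in wt/wt tumors.

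**Figure D3:**
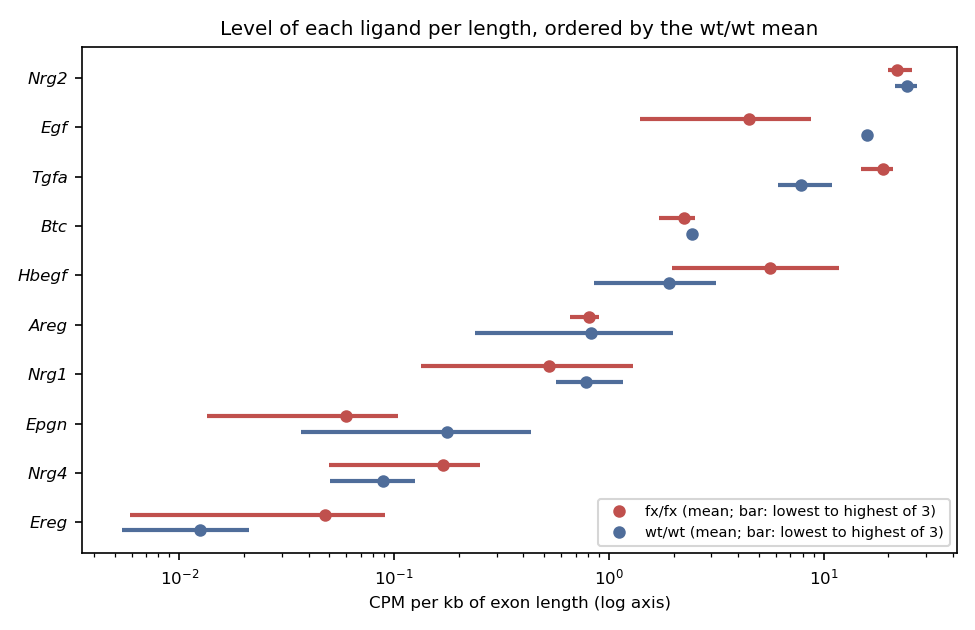
Mean level per exon length of the 10 ligands, in CPM per kb on a log axis, with fx/fx drawn above wt/wt for each gene and bars running over the lowest and highest of 3 libraries. Nrg2 is highest in both groups, at 22.0 CPM per kb in fx/fx tumors and 24.5 CPM per kb in wt/wt tumors, and beneath it Tgfa lies above Egf in fx/fx tumors and below Egf in wt/wt tumors.

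The summed level of the 10 ligands was 57.3, 44.9 and 62.2 CPM per kb in fx1, fx2 and fx3, against 47.4, 57.4 and 58.6 CPM per kb in wt1, wt2 and wt3, so the sums overlapped. What differed was the make-up of the sum. Egf supplied 2.44%, 7.52% and 14.1% of it in the fx/fx libraries, against 32.2%, 28.6% and 27.3% in the wt/wt libraries. Tgfa supplied 35.9%, 33.1% and 33.9% in the fx/fx libraries, against 13.4%, 10.6% and 18.7% in the wt/wt libraries. The ratio of Tgfa to Egf per kb was 14.7, 4.40 and 2.40 in fx1, fx2 and fx3, against 0.417, 0.371 and 0.684 in wt1, wt2 and wt3. It was above 1 in every fx/fx library and below 1 in every wt/wt library. The shares of Egf and Tgfa restate their levels given above and are no separate result. Their ratio was chosen after the values of Egf and Tgfa were seen and is given as a description. Nrg2 supplied between 34.7% and 45.3% of the sum in fx/fx tumors and between 42.4% and 47.5% in wt/wt tumors, and Hbegf supplied 20.6% in fx1.

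**Figure D4:**
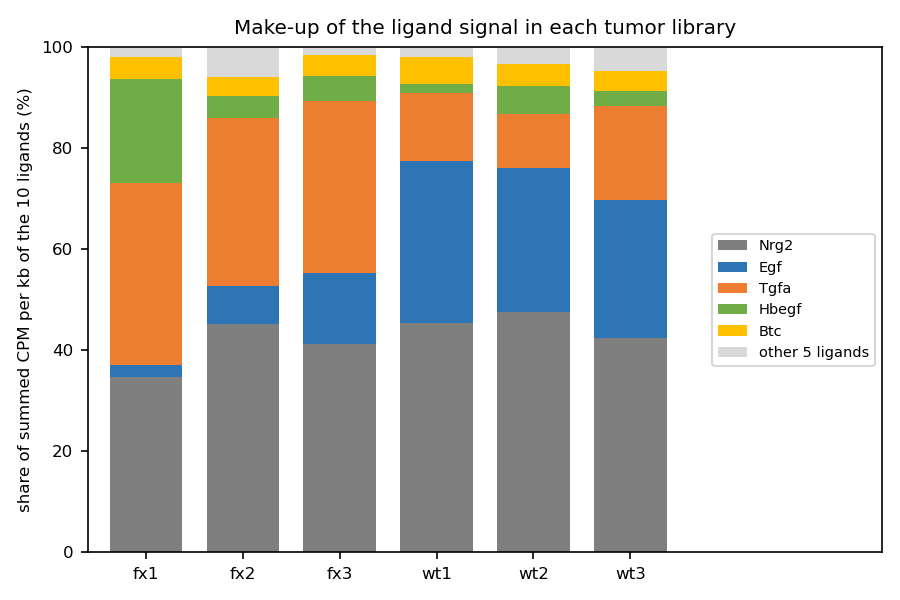
Share of each ligand in the summed CPM per kb of the 10 ligands (vertical axis, percent), 1 stacked bar per library, with the fx/fx libraries left of the wt/wt libraries. The Egf segment spans 2.44% to 14.1% in fx/fx tumors and 27.3% to 32.2% in wt/wt tumors, and the Tgfa segment 33.1% to 35.9% in fx/fx tumors and 10.6% to 18.7% in wt/wt tumors.

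The receptors of these ligands were described next. Egfr had 71.9, 104 and 94.1 CPM in fx1, fx2 and fx3, against 121, 79.5 and 101 CPM in wt1, wt2 and wt3 (overlapping groups, edgeR log2 fold change -0.16, adjusted p = 0.796). Erbb4, the receptor of betacellulin, HB-EGF and the neuregulins, had 35.9, 46.8 and 37.8 CPM in fx/fx tumors, against 68.4, 120 and 70.3 CPM in wt/wt tumors. Every fx/fx library was below every wt/wt library. The edgeR log2 fold change of Erbb4 was -1.10 (SE 0.26, adjusted p = 0.185), and DESeq2 called it lower (adjusted p = 0.0150), a call lost without fx1 (adjusted p = 0.0958) or fx3 (0.0758). Erbb3 overlapped between groups (edgeR log2 fold change -0.10, adjusted p = 0.891). Erbb2 was the most abundant receptor gene, with 3742, 1715 and 2290 CPM in fx1, fx2 and fx3, against 1683, 2360 and 950.0 CPM in wt1, wt2 and wt3 (edgeR log2 fold change 0.63, adjusted p = 0.546). The NIC transgene encodes rat ErbB2, and its reads were not told apart here from those of the mouse gene.

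Around the ligands and receptors, 52 other genes of the pathway were listed by role, the 4 receptors among them, and all 52 were tested. By edgeR, 0 of 52 passed the adjusted threshold, and 7 higher and 1 lower passed an unadjusted p under 0.05, where all tested genes gave 8.18% higher and 6.04% lower. Their log2 fold changes were above 0 for 38 and below 0 for 14, with a median of 0.17, against a median of 0.00 over all tested genes. Over the 8 tested ligands the median was -0.08, with 3 above 0 and 5 below.

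Of the sheddases that release the ligands and their regulators, 9 of 11 had a log2 fold change above 0, with a median of 0.15. Adam9, a membrane metalloprotease, gave 0.44 (edgeR adjusted p = 0.328), and Frmd8, which stabilises the iRhom and ADAM17 complex that sheds TGF-alpha and amphiregulin, gave 0.56 (adjusted p = 0.397). Of the inhibitors of the receptors, 3 of 9 were above 0 and 6 below, with a median of -0.07. The inhibitors with the smallest p, named next, were both among those above 0. Socs5, an inhibitor of EGFR signalling, stood at 268 CPM in fx1 and at 68.7 and 69.5 CPM in fx2 and fx3, against 50.7, 47.1 and 62.8 CPM in wt1, wt2 and wt3 (edgeR log2 fold change 1.34, adjusted p = 0.328). The library high in Socs5 was also the one high in Hbegf. It was the highest for other genes too, among them the adaptor Shc1 at 172 CPM and the luminal marker Cldn4 at 137 CPM. Cbl, the ubiquitin ligase that marks EGFR for degradation, gave 0.42 (edgeR adjusted p = 0.367). Of the adaptors and transducers, 10 of 11 were above 0, with Plcg1, a phospholipase that docks on the receptors, at 0.61 (edgeR adjusted p = 0.356) and the docking protein Gab1 at 0.31 (adjusted p = 0.414).

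The output of the ERK pathway, which the receptors feed, was listed as 17 feedback and immediate-early genes. Of these, 15 had a log2 fold change above 0, with a median of 0.28, and 5 of those passed an unadjusted edgeR p under 0.05, while 0 passed the adjusted threshold. Of all tested genes, 49.6% had a log2 fold change above 0 and 8.18% were higher at that unadjusted p. Egr1, an immediate-early transcription factor, had 98.7, 119 and 96.5 CPM in fx1, fx2 and fx3, against 43.0, 72.2 and 53.3 CPM in wt1, wt2 and wt3. The genotypes did not overlap, and the edgeR log2 fold change was 0.90 (SE 0.23, adjusted p = 0.193). DESeq2 called Egr1 higher (adjusted p = 0.0318), a call lost when any library but wt2 was left out. Dusp4, an ERK phosphatase, gave 0.85 (edgeR adjusted p = 0.237).

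**Figure D5:**
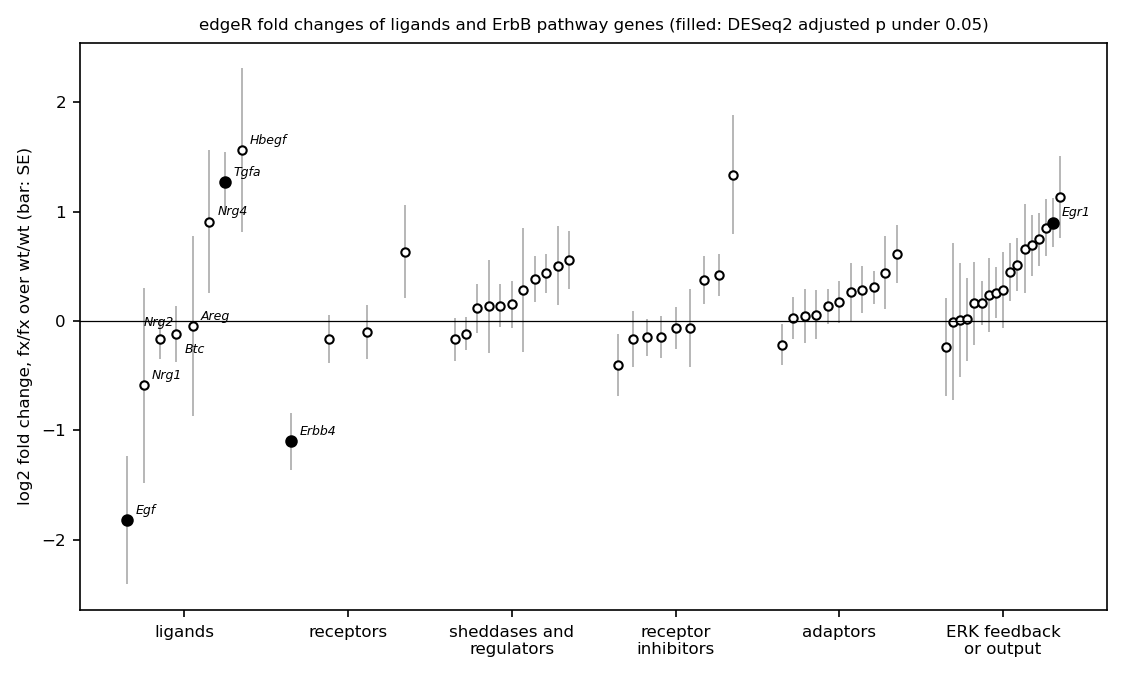
edgeR log2 fold change, fx/fx over wt/wt (vertical axis), of the 8 tested ligands and of 52 other pathway genes grouped by role, with SE bars and filled points for DESeq2 adjusted p under 0.05. Tgfa at 1.27 and Egf at -1.82 are the filled ligands, and Erbb4 at -1.10 and Egr1 at 0.90 the filled points of the other roles.

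Markers of several other cell types lay on the same side as Tgfa and opposite to Egf, and those of others on the side of Egf. On the side of Egf, 0 of 7 tested T, NK or B lymphocyte markers had a log2 fold change above 0, with a median of -0.49. The same held for 0 of 3 tested markers of skin keratinocytes and 0 of 2 of neutrophils. DESeq2 called 0 markers of these 3 lists lower. Of the fibroblast list 11 of 12 markers had a log2 fold change above 0, with 8 called higher by DESeq2, and of the adipocyte list 12 of 12, with 5 called. Of the tested mast cell markers 6 of 7 were above 0, with a median of 2.12 and 3 called higher by DESeq2, and the exception was Kit at -0.67. Those 6 were sparse, each between 0.0655 and 1.52 CPM in every library, whereas Kit, which luminal epithelium also expresses, stood between 557 and 731 CPM in fx/fx tumors and between 620 and 1381 CPM in wt/wt tumors. Over all genes DESeq2 called 3.01% higher, and edgeR called 0 of any of these lists at its adjusted threshold. Endothelial markers summed to 253, 228 and 128 CPM in fx1, fx2 and fx3, against 137, 109 and 129 CPM in wt1, wt2 and wt3. Basal or myoepithelial markers summed to 98.6, 113 and 77.1 CPM in fx/fx tumors, against 53.1, 47.1 and 55.2 CPM in wt/wt tumors. That sum was made up mostly of the contractile genes Acta2, Mylk and Tagln. The keratins Krt5 and Krt14 reached at most 1.67 and 1.36 CPM in any library. The fibroblast and adipocyte sums, like Egf and Tgfa, did not overlap between the genotypes, and both were highest in fx2. Among the fx/fx libraries, Egf was lowest in fx1 and Tgfa was lowest in fx2. The part of these cell types in the Egf and Tgfa differences was not tested. Salivary gland is a known rich source of Egf in mice. Of its 12 markers 10 had counts in some library, and Smgc and Muc19 had 0 in every library. Of the 8 tested, 5 had a log2 fold change above 0, with a median of 0.69, and 0 were called by edgeR or DESeq2. Prol1 had 8.28, 907 and 18.05 CPM in fx1, fx2 and fx3, against 55.4, 0.983 and 126 CPM in wt1, wt2 and wt3, so the groups overlapped. The list summed to 3910, 3357 and 4027 CPM in fx/fx tumors, against 6531, 3468 and 9363 CPM in wt/wt tumors, a sum made up mostly of Aqp5, which had a log2 fold change of -0.89 (edgeR adjusted p = 0.391).

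The genes whose log2 CPM followed the ligands most abundant per kb most closely across the 6 libraries were found by Pearson correlation. They were sought among 10734 genes averaging at least 5 CPM. For Nrg2 they were Abhd11 (r = 0.990), Pcyox1l (0.980) and Cbll1 (0.979). For Tgfa they were Sart3 (r = 0.987), Mbd2 (0.987) and E2f3 (0.984). The points share libraries, genotypes and depth, so these values are a description only.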

How the data were processed

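RNA-seq counts from 6 tumor libraries were used, 3 fx/fx and 3 wt/wt as labelled. The deposited values were whole-number read-pair counts per gene, made by the authors with featureCounts 1.6.0 on the Ensembl 93 annotation of GRCm38 with strand option 2, per the file headers. Tools named in the submitters' processing notes were STAR 2.5.1b, FastQC 0.11.5, DESeq2 1.12.3, DESeq and, unlike the headers, featureCounts 1.4.6. Reads with several alignments are not named as counted, so near-identical genes are less certain. Symbols for 54165 of 54232 identifiers came from GENCODE M21.

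The main test was that of edgeR 4.0.16 (R 4.3.3; filterByExpr, TMM, quasi-likelihood with robust fitting, Benjamini-Hochberg adjustment over all tested genes, threshold 0.05), 2-sided, with each log2 fold change set as fx/fx over wt/wt. For CPM, library sizes were TMM-scaled. CPM per kb was divided by the exon length in the count files. DESeq2 1.42.0, limma-voom 3.58.1, other scalings, no filter, a replicate block and leaving out each library were alternatives. Log2 CPM had a prior count of 2.

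All 10 ligands are named. Of the other pathway genes the 4 receptors are named, and in each role the genes past the threshold or, where there were none, the 2 with the smallest p. For the 2 ligands with the highest CPM per kb, the 3 most similar genes are named. Marker lists are given as counts and summed levels. The members, lists and rules were chosen with earlier results of these data known.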

Additional observations from a re-analysis of the deposited data

How the results depend on the processing

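At an adjusted p under 0.05, the counts for all genes, ligands and other pathway genes were 0, 0 and 0 by edgeR, where 2381 of all genes had an unadjusted p under 0.05, and 831, 2 and 2 by DESeq2. limma-voom called 0 genes, with 2389 at an unadjusted p under 0.05. With every gene kept, whatever its counts, edgeR called 38 genes and 0 ligands, and Tgfa had an adjusted p of 0.0836. Leaving out each library gave between 0 and 2 genes by edgeR. DESeq2 with each library left out, an alternative chosen after seeing the data, called 525 genes without fx1, 1738 without fx2 and 406 without wt1, of a range of 406 to 1738. It called 0 ligands without wt1, 1 without wt2 and 1 without wt3. Without fx2 it called 2 ligands, 1 higher and 1 lower, and the lower was not Egf (DESeq2 adjusted p = 0.0905). Which ligand this was is not reported here. In that setting edgeR gave Nrg1 a log2 fold change of -2.52 (adjusted p = 0.0914). Of the pathway genes DESeq2 called 1 without fx1, 5 without fx2, 0 without fx3, 1 without wt1 and 1 without wt3.

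The log2 fold changes of Egf and Tgfa kept their direction under all 13 alternatives each, as did those of Hbegf, Nrg1, Nrg2 and Nrg4. Areg turned to 0.66 by limma-voom, 0.70 with the replicate block, 0.11 without fx3 and 1.68 without wt3. Over the libraries left out in turn, the log2 fold change of Areg lay between -0.49 and 1.68. That of Btc lay between -0.22 and 0.044, above 0 without fx2. That of Nrg1 lay between -2.52 without fx2 and -0.12 without fx3, and that of Nrg4 between 0.50 and 1.34. That of Erbb3 lay between -0.30 and 0.066, above 0 without fx1. The cause was not tested.

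With the replicate number as a block the log2 fold change was -2.20 for Egf, 1.31 for Tgfa and -1.38 for Nrg1, and edgeR called 0 genes, with 2081 at an unadjusted p under 0.05. The deviations of same-numbered libraries had correlations of -0.085, -0.095 and 0.057, and no library correlated best with its own number. The numbers were therefore not taken to pair the libraries. With no filter on low counts edgeR gave Epgn a log2 fold change of -1.52 (adjusted p = 0.663) and Ereg 1.88 (adjusted p = 0.524), on at most 35 and 14 read pairs a library.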

Other observations

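Nrg3, the remaining neuregulin gene of the mouse, is not among the 10 ligands and was looked up after their values were seen. It had 8 read pairs in fx1 and 0 in each of the other 5 libraries.

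The genes that followed Egf most closely in log2 CPM over the 6 libraries were also looked up after its values were seen, and are given as a description. Foxi1, a forkhead transcription factor known from ion-transporting epithelial cells, had a Pearson r of 0.995 with Egf. Foxi1 stood at 220, 311 and 391 CPM in fx1, fx2 and fx3, against 467, 460.1 and 466 CPM in wt/wt tumors. The next were Cdkn2aipnl (r = 0.985) and Dclre1a, a DNA repair nuclease (r = 0.984). For these 3 genes and for Egf, fx1 was the lowest and fx3 the highest of the fx/fx libraries. The genes were chosen for following Egf over these libraries, so the shared order is no separate result.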
